A study of Mus musculus with 6 samples.

Results

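The 5 neuronal intermediate filament genes of the mouse, *Nefl*, *Nefm*, *Nefh*, *Ina* and *Prph*, were followed in the retina after optic nerve crush (ONC). They were chosen by name as the whole family of type III and type IV filament proteins typical of mature neurons with long axons, and all 5 were found among the 35485 genes in the files. All 5 also passed the filter of a mean RPKM above 0.3 (exon reads of a gene scaled to its exon length and to the size of the library) in at least one group, which left 13670 genes. Whole retinas of C57BL/6 mice, 12 weeks old and with no engineered allele named in the labels, were compared between 3 ONC samples, called NC in the labels, and 3 sham samples. In the ONC group the nerve was crushed behind the globe, and in the sham group it was exposed and left intact. RNA was taken 2 days after surgery. Each sample was a pool of 6 retinas, so that the spread described is the spread between pools and not between mice. In whole retina, fewer ganglion cells and less RNA per ganglion cell cannot be told apart.

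Neurofilaments are ropes of protein that fill the axon and set its caliber, and with it the speed of conduction. The light chain (*Nefl*) can form the core of the filament, the medium chain (*Nefm*) and the heavy chain (*Nefh*) join it and carry long tails that project from the filament and are heavily phosphorylated in the axon, and α-internexin (*Ina*) is a further subunit in the central nervous system. Peripherin (*Prph*) is best known from peripheral neurons and from neurons that send axons out of the brain and spinal cord. In the retina, neurofilaments are used as markers of retinal ganglion cells (RGCs), whose axons form the optic nerve, and of horizontal cells.

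Positions are those of the files, which are on the coordinates of GRCm38 with gene models that differ in part from RefSeq. *Nefl* lay on chromosome 14 at 68083884 to 68087745 on the plus strand, with 4 exons and 2009 exon bases. *Nefm* lay on the same chromosome at 68119545 to 68125004 on the minus strand, with 3 exons and 3230 exon bases, 31799 bases beyond the end of *Nefl*. The other members lay apart. *Nefh* was at 4938754 to 4948064 on chromosome 11, on the minus strand, with 4 exons and 3994 exon bases. *Ina* was at 47014698 to 47024358 on chromosome 19, on the plus strand, with 3 exons and 2271 exon bases. *Prph* was at 99055174 to 99058978 on chromosome 15, on the plus strand, with 11 listed exons, 1865 exon bases and 3 transcripts. The gene model in the files ended 1350 bases before the RefSeq end of *Nefl* and 969 bases before that of *Ina*, and reads beyond those ends were not counted for these genes. At the start, the RefSeq span began 21 bases earlier for *Nefl*, 17 for *Ina* and 1595 for *Prph*.

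Promoter sequences from RefSeq (GRCm38.p6) were at hand for 2 of the 5 members, *Ina* and *Prph*, and both are shown. Each is the 250 bases before the start that the RefSeq promoter table uses, 5′ to 3′ on the plus strand, at chr19:47014431-47014680 for *Ina* and chr15:99054924-99055173 for *Prph*. For *Prph* that start is the one in the files, and the window lies within the longer RefSeq span. Capitals mark matches to the motifs searched.
Ina: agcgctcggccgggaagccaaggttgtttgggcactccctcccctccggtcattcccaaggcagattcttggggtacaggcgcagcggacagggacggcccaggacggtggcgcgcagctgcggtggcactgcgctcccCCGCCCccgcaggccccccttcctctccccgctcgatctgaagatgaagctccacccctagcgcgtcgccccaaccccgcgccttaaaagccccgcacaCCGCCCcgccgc
Prph: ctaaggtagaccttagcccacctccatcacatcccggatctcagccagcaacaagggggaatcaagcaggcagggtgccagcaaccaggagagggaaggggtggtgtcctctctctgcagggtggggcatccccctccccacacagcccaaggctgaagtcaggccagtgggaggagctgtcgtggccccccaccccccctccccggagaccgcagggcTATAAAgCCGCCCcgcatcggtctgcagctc
The motifs searched on both strands were the TATA box TATAAA, the GC box GGGCGG (a motif of the Sp1 family), the cyclic AMP response element TGACGTCA, the AP-1 motif TGANTCA, the POU4F motif CTCATTAA and a further POU motif, written ATAATTAAT. None of them contains another. The *Ina* window held GGGCGG on the minus strand at -111 to -106 and at -12 to -7 from the start, printed as CCGCCC. The *Prph* window held TATAAA at -31 to -26 and GGGCGG on the minus strand at -24 to -19. Among 32851 promoter windows of the same length, 12.4% held TATAAA and 32.7% held GGGCGG. The other 4 motifs, held by 1.55%, 6.75%, 0.807% and 0.259% of windows in the order above, did not occur in either window. GC content was 70.8% for *Ina* and 65.2% for *Prph*, with a median of 52.4% over all windows. These matches describe the letters of the windows and were not tested for binding.

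The libraries held 17343945 to 18349331 exon reads in the sham samples and 20019818 to 20358008 in the ONC samples. Reads on exons made up 70.9% to 76.6% of all reads on genes in the sham samples and 78.5% to 80.4% in the ONC samples. The divisor of RPKM in the files takes in the reads on introns too, and with it the median log2 difference between ONC and sham over all genes tested was 0.13. With TMM normalization of the exon reads, used for the tests below, it was 0.01. RPKM values therefore give smaller falls than the fitted changes. Markers of photoreceptors were present at a summed RPKM of 18082 to 21088, those of Müller glia and astrocytes at 683 to 780 and those of RGCs at 261 to 353, so that the tissue carried the markers of retina. Of 6 Schwann cell markers, only *Pmp22* passed the filter on RPKM.

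Of the 5 genes, 4 fell after ONC. *Nefh*, the heavy chain, had the largest fall of the 4. *Nefl*, *Nefm* and *Ina* fell by about the same amount as each other and by less than 1.5-fold. *Prph* had higher values after ONC, but its change did not pass the test. An adjusted p (Benjamini-Hochberg over 13670 genes, edgeR quasi-likelihood test) under 0.1 was required for a gene to be called higher or lower, and a differentially expressed gene (DEG) needed a fold change above 1.5 as well. Of all genes tested, 3.72% were lower and 2.38% were higher at that adjusted p, 0.834% were lower DEGs and 0.827% were higher DEGs. In 28.8% of all genes the RPKM ranges of the groups did not overlap. Against these shares, 4 of the 5 members were lower, 1 was a lower DEG, and in all 5 the RPKM ranges did not overlap.

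*Nefl* was the member with the highest level. Its RPKM was 137, 146 and 143 in the sham pools and 114, 103 and 104 in the ONC pools. Every ONC pool lay below every sham pool, and the mean went from 142 ± 4.90 to 107 ± 6.04 (SD, n = 3). The exon reads behind these values were 6307 to 7034 in sham and 5156 to 5806 in ONC. The fitted log2 fold change was -0.53 (SE 0.07, adjusted p = 4.07e-05, edgeR), a change of -30.6% with a 95% interval of -36.9% to -23.6%. Among the tested genes of each sample, ordered from the highest RPKM, *Nefl* took ranks 228 to 267 in sham and 338 to 410 in ONC. *Nefl* missed the 1.5-fold limit with all samples, and passed it without ONC replicate 1, where the log2 fold change was -0.59.

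*Nefm*, the medium chain, was second to the light chain in level per kilobase. Its RPKM was 37.1, 39.4 and 36.5 in the sham pools and 34.2, 28.6 and 27.4 in the ONC pools. ONC replicate 1 stood nearest to the sham pools, and the groups did not overlap. The mean went from 37.7 ± 1.54 to 30.1 ± 3.62 (SD, n = 3). The fitted log2 fold change was -0.45 (SE 0.08, adjusted p = 0.00186, edgeR), a change of -26.6% with a 95% interval of -34.6% to -17.6%. Of the exon reads of *Nefm*, 74.4% ± 0.437 in sham and 74.1% ± 2.33 in ONC were uniquely mapped, the lowest share in the family. The first 1253 bases of the transcribed gene, at 68123752 to 68125004 on chromosome 14, also lay within *A230070E04Rik*, and how far reads were split between these genes was not tested. *Nefm* had 538 to 783 exon reads per sample that were not unique, and *A230070E04Rik* had 110 to 205 gene reads in all, of which 104 to 194 were unique. With uniquely mapped reads alone *Nefm* was still lower (the values of all alternatives are shown in the plot of alternatives).

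*Nefh* had an RPKM of 17.9, 20.3 and 19.04 in the sham pools and 9.66, 7.87 and 7.94 in the ONC pools. All ONC pools lay far below the lowest sham pool, and the mean went from 19.1 ± 1.20 to 8.49 ± 1.01 (SD, n = 3). The exon reads were 1640 to 1939 in sham and 782 to 976 in ONC, although the ONC libraries were the deeper ones. The fitted log2 fold change was -1.29 (SE 0.09, adjusted p = 2.89e-08, edgeR), which is 2.44-fold lower, a change of -59.0% with a 95% interval of -64.2% to -53.2%. By p it was the gene of rank 8 among the 13670, and by log2 fold change rank 59 from the lowest. Its rank by RPKM within a sample went from 2701 to 3176 in sham to 5781 to 6840 in ONC. *Nefh* was a DEG with all samples and in each fit without 1 sample, and *Nefl* joined it as a DEG without ONC replicate 1. Its start overlapped that of *Ap1b1* on the opposite strand by 544 bases, and whether strand was used in counting is not given in the sources used here. *Ap1b1* had 7651 to 8636 gene reads in sham and 8397 to 9471 in ONC.

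*Ina* had an RPKM of 25.3, 24.4 and 26.4 in the sham pools and 21.5, 18.6 and 20.4 in the ONC pools. The groups did not overlap, with means of 25.4 ± 1.005 and 20.2 ± 1.46 (SD, n = 3). The fitted log2 fold change was -0.45 (SE 0.09, adjusted p = 0.0031, edgeR), a change of -27.0% with a 95% interval of -35.5% to -17.4%. The first 492 bases of *Ina* overlapped *Nt5c2* on the opposite strand, whose gene reads were 1268 to 1375 in sham and 1456 to 1531 in ONC.

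*Prph* was the member with the lowest level and was counted with few reads. It had 35, 53 and 60 exon reads in the sham pools and 77, 81 and 96 in the ONC pools. Its RPKM was 0.816, 1.19 and 1.31 in sham and 1.63, 1.75 and 1.98 in ONC, without overlap, and the means were 1.11 ± 0.259 and 1.79 ± 0.180 (SD, n = 3). The fitted log2 fold change was 0.56 (SE 0.29, adjusted p = 0.332, edgeR), with a 95% interval of -0.04 to 1.16 that held both no change and a change of more than 2-fold. At this depth a change of *Prph* was not resolved by the count test. With limma on log2(RPKM + 1), where the median over all genes was 0.11, the change of *Prph* was 0.41 with an adjusted p of 0.0891, and this was the alternative of 18 in which it passed.

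**Figure D1:**
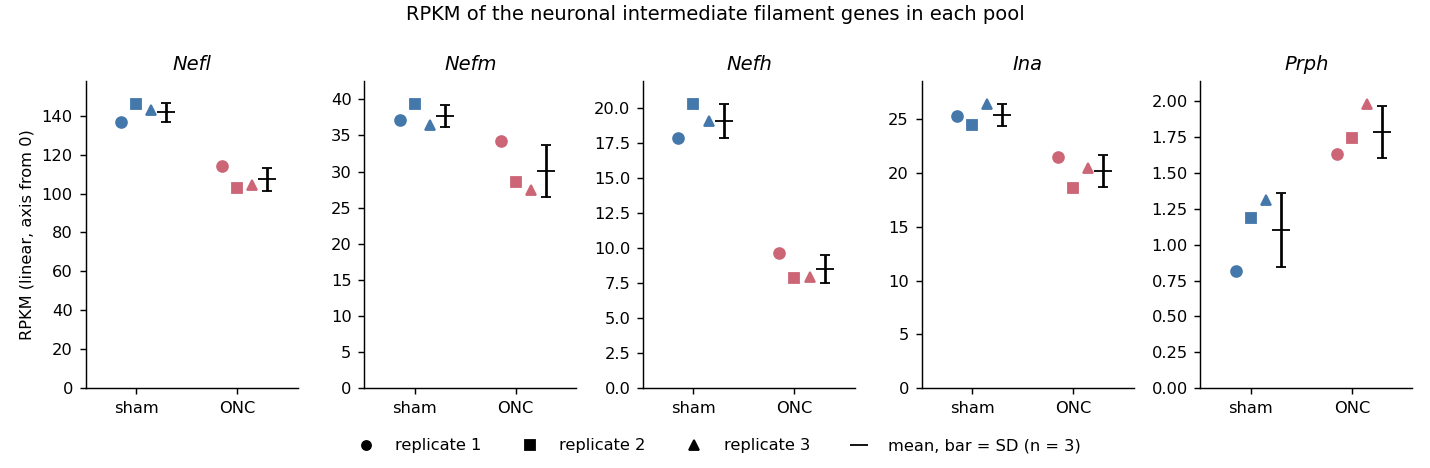
RPKM of each gene in each pool (linear axes from 0, one panel per gene), with symbols for the replicate number and the mean and SD beside the points (n = 3). In *Nefl*, *Nefm*, *Nefh* and *Ina* the 3 ONC pools lie below the 3 sham pools, in *Prph* they lie above, and ONC replicate 1 is the ONC pool nearest to sham in all 5 panels.

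The order of the levels per kilobase was *Nefl*, *Nefm*, *Ina*, *Nefh* and *Prph* in every sample of both groups. Neighbours in this order did not overlap within a group. In sham, the lowest *Nefm* pool (36.5) lay above the highest *Ina* pool (26.4), whose lowest pool (24.4) lay above the highest *Nefh* pool (20.3). The summed RPKM of the family was 218, 231 and 226 in the sham pools and 181, 160 and 162 in the ONC pools, or 225 ± 6.97 against 168 ± 11.7 (SD, n = 3). *Nefl* alone made up 63.0% ± 0.253 of this sum in sham and 64.0% ± 0.813 in ONC, with overlapping ranges (exact permutation p = 0.3, two-sided). The share of *Nefh* went from 8.46% ± 0.278 to 5.05% ± 0.244, and that of *Prph* from 0.489% ± 0.105 to 1.07% ± 0.162. For both, the groups did not overlap and the exact permutation p was 0.1, the smallest that 3 samples against 3 allow (adjusted p = 0.25 over the 5 shares). The shares of *Nefm*, 16.7% and 17.9%, and of *Ina*, 11.3% and 12.0%, overlapped between the groups.

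Ratios between subunits within a sample do not depend on how the libraries are scaled. All 10 pairs were compared between the groups by exact permutation tests, two-sided, which could not go below p = 0.1. Each light chain transcript per kilobase was matched by less heavy chain after ONC. The ratio of *Nefl* to *Nefh* was 7.65, 7.21 and 7.51 in the sham pools and 11.8, 13.1 and 13.2 in the ONC pools, a log2 difference of 0.77 (SE 0.06). The ratio of *Nefm* to *Nefh* went from 1.98 ± 0.0874 to 3.54 ± 0.0928 (SD, n = 3), a log2 difference of 0.84 (SE 0.04). The ratio of *Nefh* to *Ina* went from 0.752 ± 0.0673 to 0.421 ± 0.0303, a log2 difference of -0.84 (SE 0.09). In these 3 pairs the groups did not overlap (exact permutation p = 0.1, adjusted p = 0.143 over the 10 pairs). The same held for the 4 pairs with *Prph*, in which *Prph* was the divisor and the ratio was lower after ONC. The log2 differences were -1.12 for *Nefl* to *Prph*, -1.05 for *Nefm* to *Prph*, -1.89 for *Nefh* to *Prph* and -1.05 for *Ina* to *Prph*.

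Among *Nefl*, *Nefm* and *Ina* the ratios stayed within overlapping ranges. *Nefl* to *Nefm* was 3.77 ± 0.133 in sham and 3.59 ± 0.237 in ONC, a log2 difference of -0.07 (SE 0.06, exact permutation p = 0.4, adjusted p = 0.444). *Nefl* to *Ina* was 5.6001 ± 0.332 and 5.33 ± 0.215, a log2 difference of -0.07 (SE 0.06, exact permutation p = 0.4). *Nefm* to *Ina* was 1.49 ± 0.118 and 1.49 ± 0.131, a log2 difference of 0.0016 (SE 0.0996, exact permutation p = 1). The sign of the last value changed with the sample left out. With 3 pools on each side, these p values do not show that the ratios were equal.

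**Figure D2:**
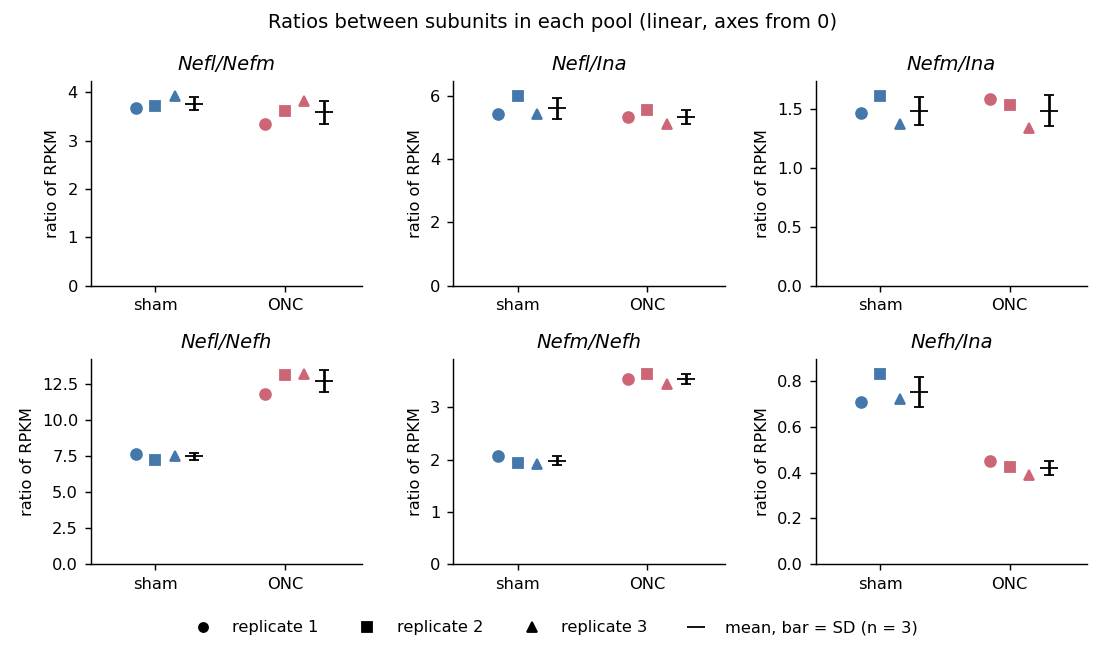
Ratio of RPKM between 2 subunits in each pool (linear axes from 0), with symbols for the replicate number and the mean and SD beside the points (n = 3). The upper panels, without *Nefh*, overlap between sham and ONC, and the lower panels, with *Nefh*, do not.

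Reads that span the joint of 2 exons come from spliced RNA. They are a subset of the exon reads and not an independent measurement. *Nefl* had 1390 to 1636 such reads in sham and 1161 to 1281 in ONC, and its log2 fold change in a fit on these reads was -0.53 (adjusted p = 0.00016, edgeR). *Nefm* had 266 to 360 and 234 to 268, and the log2 fold change was -0.53 (adjusted p = 0.0325, edgeR). *Nefh* had 187 to 227 and 103 to 132, and the log2 fold change was -1.01 (adjusted p = 0.000705, edgeR). For *Ina* the values were 195 to 259 and 168 to 199, with a log2 fold change of -0.52 (adjusted p = 0.0864, edgeR). *Prph* had 18 to 44 and 50 to 73 reads, with a log2 fold change of 0.63 (adjusted p = 0.475, edgeR). The same 4 members were lower, against 1.68% of the 13180 genes tested in this way. About 71% of the exon reads of *Prph* in ONC spanned a joint (70.9% ± 5.59, and 66.1% ± 12.7 in sham), against 22.7% ± 1.91 in ONC for *Nefl* (SD, n = 3). The gene models list 11 exons for *Prph* and 4 for *Nefl*, so that these shares do not compare splicing between the 2 genes.

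Reads on a gene but outside its exons are called intron reads here. They can come from RNA that is not yet spliced, but their source was not tested. Intron reads were few in this family. *Nefl* had 0, 0 and 3 in the sham pools and 4, 4 and 6 in the ONC pools, and *Prph* had 1 such read in all, so that neither reached the mean of 10 reads needed for a test. *Nefh* had 14, 21 and 18 in sham and 25, 19 and 16 in ONC. These ranges overlapped, and the log2 fold change of the intron reads of *Nefh* was 0.25 (SE 0.55, adjusted p = 0.851, edgeR), with a 95% interval of -0.92 to 1.42. *Nefm* had 12, 19 and 8 against 13, 19 and 18, with a log2 fold change of 0.37 (SE 0.61, adjusted p = 0.793, edgeR). *Ina* had 31, 22 and 26 against 6, 10 and 29, with a log2 fold change of -0.85 (SE 0.58, adjusted p = 0.479, edgeR). The value of *Ina* was -1.59 without ONC replicate 3 and -0.54 without ONC replicate 1, and that of *Nefm* was 0.74 without sham replicate 2 and 0.09 without sham replicate 3. Of the 3, 0 were called by edgeR and 0 had an unadjusted p under 0.05. Over the 13821 genes tested on intron reads, 2.75% were called in either direction and 2395 had an unadjusted p under 0.05. Intervals this wide hold changes as large as those of the exon reads for *Nefm* and *Ina*. For *Nefh*, exon and intron reads were compared within each sample.

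The log2 ratio of exon to intron reads (1 added to each) of *Nefh* was 6.77, 6.46 and 6.61 in the sham pools and 5.23, 5.29 and 5.599 in the ONC pools. The groups did not overlap, and the difference was -1.24 (SE 0.15, exact permutation p = 0.1, the smallest possible, adjusted p = 0.167 over the 5 members). The difference was -0.63 (SE 0.40, exact permutation p = 0.2) for *Nefm* and 0.79 (SE 0.64, exact permutation p = 0.4) for *Ina*, both with overlapping groups. For *Nefl* and *Prph*, whose ratios rest on 0 to 6 intron reads, the differences were -2.13 and 1.13. Over all genes, exon reads took the larger share of gene reads in the ONC pools, as given above. Part of the *Nefh* span is shared with *Ap1b1*, and which of these few reads came from the opposite strand was not tested.

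**Figure D3:**
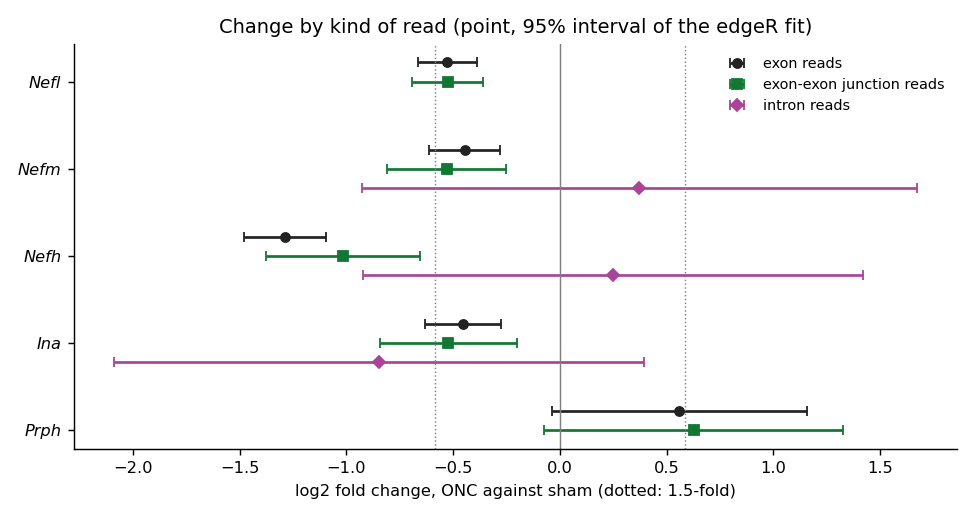
Log2 fold change of each gene, ONC against sham (horizontal axis, log2 scale), from exon reads, exon-exon junction reads and intron reads, with the 95% interval of the edgeR fit. The exon and junction intervals of *Nefl*, *Nefm*, *Nefh* and *Ina* lie below 0, those of *Prph* and all intron intervals cross 0.

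The direction of each of the 5 log2 fold changes was the same in the main fit and in 18 alternatives. Over these, the log2 fold change was -0.59 to -0.40 for *Nefl*, -0.57 to -0.32 for *Nefm*, -1.41 to -1.01 for *Nefh*, -0.52 to -0.32 for *Ina* and 0.36 to 0.75 for *Prph*. In every one of them 4 members were lower at an adjusted p under 0.1.

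**Figure D4:**
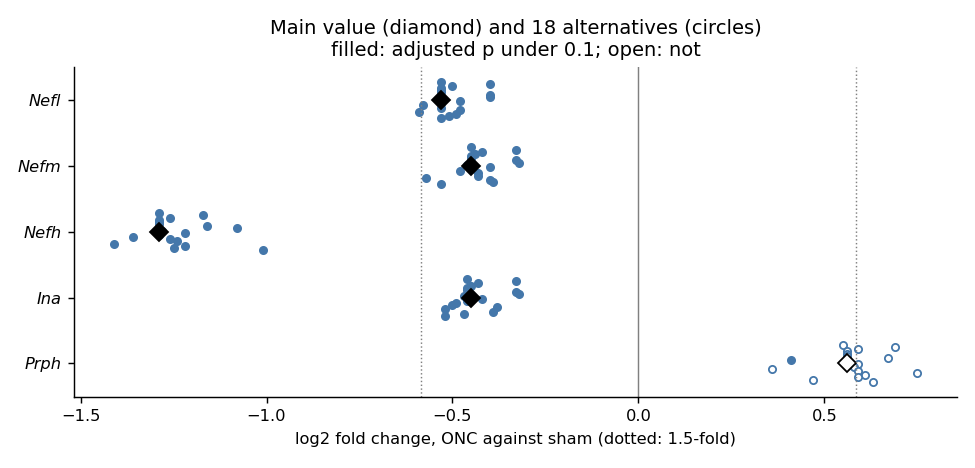
Log2 fold change of each gene, ONC against sham (horizontal axis, log2 scale), in the main fit (diamond) and in 18 alternatives (circles), filled where the adjusted p was under 0.1. All points of *Nefl*, *Nefm*, *Nefh* and *Ina* are filled and below 0, and 1 of the circles of *Prph* is filled.

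Of the other intermediate filaments, 12 genes in 4 lists were tested and 0 were called lower by edgeR, where 3.72% of all genes were. For this and the lists below, 2286 of all 13670 genes had an unadjusted p under 0.05 with edgeR. DESeq2 called 354 of all genes higher and 578 lower at an adjusted p under 0.1. Of 5 tested genes for other cytoplasmic intermediate filaments, 0 were called in either direction at an adjusted p under 0.1 with edgeR (median log2 fold change 0.18, against 0.01 over all genes), 4 had an unadjusted p under 0.05 (3 of them higher and *Synm* lower, at -0.19), and 1, *Vim*, was called higher by DESeq2. *Gfap*, the filament of astrocytes and reactive Müller glia, had an RPKM of 4.35 to 6.06 in sham and 6.27 to 8.19 in ONC, with a log2 fold change of 0.36 (adjusted p = 0.126, edgeR). *Vim*, the filament of Müller glia, had 46.9 to 51.7 and 59.2 to 62.3, with a log2 fold change of 0.18 (adjusted p = 0.112, edgeR). Both lay higher by RPKM in every ONC pool and missed the edgeR test. RPKM ranges did not overlap in 28.8% of all genes. With the divisor of RPKM, the median log2 difference over all genes was 0.13. Of the 3 nuclear lamins and of the 2 beaded filament genes of the lens 0 were called by edgeR, with 1 in each list at an unadjusted p under 0.05, and DESeq2 called 0 lamins and 1 beaded filament gene, *Bfsp1*, as higher. *Synm* and *Bfsp1* were named after their values were seen. *Krt18*, a keratin of simple epithelia, was higher after ONC, from an RPKM of 20.8 to 24.9 in sham to 35.8 to 36.2, with a log2 fold change of 0.52 (adjusted p = 0.000814, edgeR). It was named after its value was seen, as the 1 of 2 tested keratins that was called.

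Genes whose products act on neurofilaments were mostly not called. Of 10 kinases and kinase activators that phosphorylate neurofilament tails, 1 was lower, *Mapk10* (JNK3, a stress kinase enriched in neurons), with a log2 fold change of -0.35 (adjusted p = 0.00199, edgeR). Of 8 linkers and motors, 2 were lower. *Kif5a*, a kinesin heavy chain that moves neurofilaments along axons, had a log2 fold change of -0.37 (adjusted p = 0.00843, edgeR), and *Macf1*, a giant linker of microtubules and actin, one of -0.23 (adjusted p = 0.0308, edgeR). The RPKM of *Macf1* overlapped between the groups. *Mapk10*, *Kif5a* and *Macf1* were named after their values were seen, and none of them reached 1.5-fold. Of 6 genes for turnover of neurofilaments or binding of their mRNA, 0 were called by edgeR, while 1, the small heat shock protein *Hspb1*, had an unadjusted p under 0.05 and was called higher by DESeq2 (named after its value was seen). The medians of the 3 lists were -0.06, -0.14 and -0.04 on the log2 scale.

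Markers of RGCs were examined beside the filament genes. Of 10 RGC markers, 6 were lower and 1 was higher at an adjusted p under 0.1, and 5 were lower DEGs, while 3 (*Isl1*, *Pou4f3* and *Nrn1*) were not called. The median log2 fold change of the 10 was -0.49. The summed RPKM of the 10 was 341 to 353 in sham and 261 to 281 in ONC. *Sncg*, γ-synuclein, had an RPKM of 112 to 121 in sham and 61.3 to 67.4 in ONC, with a log2 fold change of -0.95 (adjusted p = 2.89e-08, edgeR). *Tubb3*, the neuronal β-tubulin of axonal microtubules, had 47.2 to 55.0 and 30.0 to 35.0, with a log2 fold change of -0.75 (adjusted p = 2.35e-06, edgeR). The RGC transcription factors *Pou4f1* and *Pou4f2* had log2 fold changes of -0.75 and -1.39, and *Rbpms*, an RNA-binding protein, one of -0.82. The value of *Nefh* lay between those of *Sncg* and *Pou4f2*, while *Nefl*, *Nefm* and *Ina* lay nearer to the median of the markers. *Thy1*, at the RGC surface, had a log2 fold change of -0.22 (adjusted p = 0.0517, edgeR), and *Slc17a6*, the vesicular glutamate transporter of RGCs, was higher, with 0.26 (adjusted p = 0.0525, edgeR). The RPKM of *Thy1* overlapped between the groups, at 88.3 to 93.2 in sham and 80.7 to 89.2 in ONC. *Thy1*, *Slc17a6* and the 3 markers not called were named after their values were seen. The part of RGC number or state in the fall of the filament genes was not tested.

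Other cell types that hold neurofilaments or that could enter the sample were set beside these values. Of 6 horizontal cell markers, 2 were lower, *Prox1* with a log2 fold change of -0.33 and *Calb1* with -0.23. The RPKM of both overlapped between the groups. *Lhx1*, *Onecut1* and *Onecut2* (-0.62, -0.83 and -0.16) and *Gja10* (0.25) were not called by edgeR, with *Lhx1* at an unadjusted p under 0.05. All 6 were named after their values were seen. The summed RPKM of the 6 was 45.4 to 49.8 in sham and 42.3 to 43.0 in ONC. Most of it came from *Calb1* and *Prox1*, with sham means of 24.8 and 18.9. Of the 6 amacrine, 6 bipolar and 5 tested Müller glia and astrocyte markers, 0 were called by edgeR or DESeq2, with 0, 1 and 1 at an unadjusted p under 0.05, and of 6 photoreceptor markers 2 were higher. Of 6 microglia markers, 2 were higher DEGs, *Itgam* with a log2 fold change of 0.76 (adjusted p = 0.0903, edgeR) and the lysosomal protein *Cd68* with 1.497 (adjusted p = 0.0912, edgeR). The RPKM of *Cd68* overlapped between the groups, and that of *Itgam* was low, at 0.464 to 0.762 in sham and 0.939 to 1.15 in ONC. *Cx3cr1*, *Csf1r* and *P2ry12* (0.49, 0.41 and 0.95) and *Aif1* (-0.32) were not called by edgeR, with *Cx3cr1* and *Csf1r* at an unadjusted p under 0.05. The markers not called were named after their values were seen. The summed RPKM of the microglia markers was 4.80 to 6.996 in sham and 8.78 to 9.68 in ONC. Of the 6 oligodendrocyte markers 3 were tested and of the 6 Schwann cell markers 1 was, with 0 called by either tool and 0 at an unadjusted p under 0.05, and *Mobp*, a myelin gene, had no exon read in any sample. The part of these cells in the values of the filament genes was not tested.

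**Figure D5:**
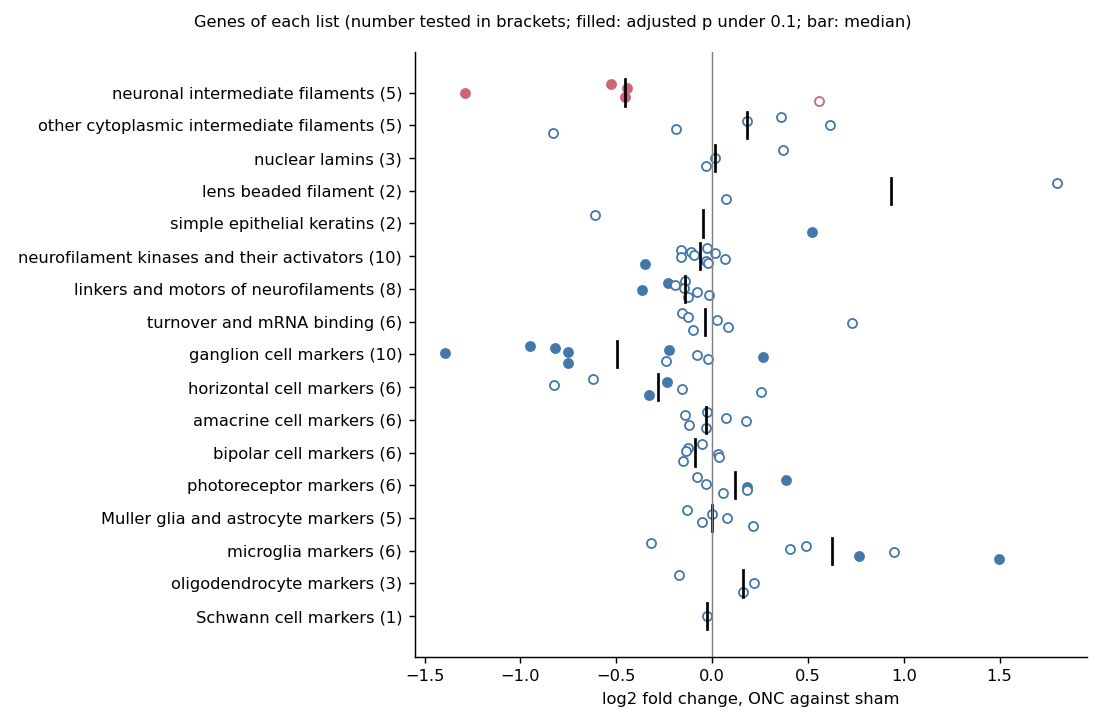
Log2 fold change, ONC against sham (horizontal axis, log2 scale), of every tested gene of each list, with the number tested in brackets, filled circles for an adjusted p under 0.1 and a bar at the median. The neuronal filament genes and the ganglion cell markers hold most of the filled points below 0, and the other filament lists hold none there.

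For each member, the 3 genes with the profile most like its own over the 6 samples were found among 11971 genes by Pearson's r of log2 TMM-normalized CPM. For *Nefl* these were *Tmem25* (r = 0.998), *Mgll* (r = 0.998) and *Ndrg4* (r = 0.997). For *Nefm* they were *Arhgef4* (r = 0.998), *Apbb2* (r = 0.997) and *Dpysl5* (r = 0.997). For *Nefh* they were *Limk1*, *Kcnc1* and *Tspan5*, each with r = 0.997. For *Ina* they were *Plcxd2* (r = 0.996), *Efr3b* (r = 0.996) and *Nat8l* (r = 0.995), and for *Prph* they were *Rhod* (r = 0.994), *BC017643* (r = 0.987) and *Nsmaf* (r = 0.987). With 3 pools on each side, r follows the difference between the groups as well as the order of the pools. Likeness in r is not likeness in size. *Limk1*, a kinase that regulates the actin cytoskeleton, had a log2 fold change of -0.64 and *Tspan5* of -0.27, against -1.29 for *Nefh*.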

How the data were processed

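RNA of 6 retina pools (3 ONC, 3 sham) was sequenced on the HiSeq2000 after TruSeq preparation, and groups and replicate numbers were taken from the sample labels. Mapping was done by the authors in CLC Genomics Workbench, to a genome named mm9 in the paper and in the submitters' processing notes. The positions in the files are on GRCm38 coordinates: of 29908 genes with a RefSeq entry of the same symbol, 15412 share both ends and 21924 at least 1, and of the members *Nefm* and *Nefh* share both. Strands were taken from GENCODE M1. The deposited counts are whole reads per gene, not normalized, with an intact pair counted as 1 and broken pairs ignored. The deposited RPKM values were made by the authors from total exon reads, exon length and all reads on genes. The reads themselves were not analysed here.

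Exon reads were compared with edgeR 4.0.16 (TMM, glmQLFit, glmQLFTest) in R 4.3.3 over 13670 genes, each with its mean RPKM in a group exceeding 0.3. A gene was called at an adjusted p under 0.1 (Benjamini-Hochberg), and a DEG needed a fold change above 1.5. The standard error is the log2 fold change divided by the square root of F. Intron reads are total gene reads minus total exon reads, tested for genes with a mean of at least 10 in a group. Ratios and shares were compared by exact permutation tests in scipy 1.17.1. Of these procedures, the edgeR fit was tested on simulated counts. The replicates are labelled as separate samples, and p values measure the spread between pools.

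The alternatives were other scalings, filters, kinds of reads, DESeq2 1.42.0, limma 3.58.1, a replicate block and leaving out each sample. Junction reads were added after the data were seen. The members and the gene lists were chosen with earlier results of these data known. Genes named are the members, list genes that were DEGs, *Gfap*, *Vim* and the 3 genes most like each member, with other list genes marked as named after their values were seen. *Pmp22* and *Mobp* are named for the filter on low values, and *A230070E04Rik*, *Ap1b1* and *Nt5c2* for their overlap with members, all outside that rule and after their values were seen. *Arhgef28* was matched to its older symbol *Rgnef*. Features of the proteins were not analysed here, nor were the promoters of *Nefl*, *Nefm* and *Nefh*.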

Additional observations from a re-analysis of the deposited data

How the results depend on the processing

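The direction of the exon changes and the 4 calls of lower members held in all 18 alternatives. *Prph* passed with limma on log2(RPKM + 1), at 0.41 (adjusted p = 0.0891), and over all alternatives its adjusted p was 0.0891 to 0.628. Leaving out 1 sample at a time gave -0.59 to -0.48 for *Nefl*, -0.57 to -0.39 for *Nefm*, -1.41 to -1.22 for *Nefh*, -0.52 to -0.38 for *Ina* and 0.36 to 0.75 for *Prph*. The intron value of *Nefh* was -0.03 with the scaling of the exon reads and -0.07 to 0.47 with 1 sample left out, and the log2 ratio of *Nefm* to *Ina* was -0.0512 to 0.0754. DESeq2 gave intron values of 0.36, 0.23 and -0.87 for *Nefm*, *Nefh* and *Ina* without an adjusted p, since its own filter on low counts removed them. The cause was not tested, and at 14 to 25 intron reads a sample the depth limits the first. Of 283 values recomputed, 6 changed sign, all of them these 2 uncalled results, and 1 was the pass of *Prph*. The other 276 kept their direction and, where they had an adjusted p, its side of 0.1, though *Nefl* without ONC replicate 1 and *Prph* in several settings went past 1.5-fold. Intron values with 1 sample left out were 0.09 to 0.74 for *Nefm* and -1.59 to -0.54 for *Ina*, and the exon to intron difference of *Ina* was 0.29 to 1.36. Over all genes, 325 were higher and 508 lower at an adjusted p under 0.1. The split was 1507 and 223 with division by all reads on genes, 978 and 143 or 1011 and 147 with limma on RPKM, 359 and 784 with total gene reads, 158 and 222 with junction reads, 769 and 1262 without ONC replicate 1, and, with another sample left out, 152 to 263 and 219 to 443. The shared replicate numbers did not pair the samples: deviations of same-numbered samples correlated at -0.05, -0.03 and 0.003, and 0 of 6 samples correlated best with its own number. With a replicate block the log2 fold changes were -0.53, -0.45, -1.29, -0.46 and 0.58 for *Nefl*, *Nefm*, *Nefh*, *Ina* and *Prph*, no call of a member changed, and 281 genes were higher and 447 lower.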
